A study of Mus musculus with 8 samples.

Results

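The cells described here are tumour cells that carried the transcript of Tfap2a but no transcript of Cldn7, Wfdc2, Il17b or Espn. These 4 genes are called the Cldn7 set below, and the cells the set-negative cells. They were picked by unique molecular identifiers (UMIs, one count per captured mRNA molecule). A cell needed at least 500 detected genes, at most 10% mitochondrial UMIs, and at least 0.2% of its UMIs from eGFP and Mycl, which marked the tumour cells. It needed fewer than 2 UMIs over En1, Des, Hoxd9, Hoxd10 and Hoxd11, at least 2 UMIs of Tfap2a, and 0 UMIs of the Cldn7 set. Of 38460 deposited cells, 36797 passed the first filters, 34719 were tumour cells, and 131 were set-negative. The other 34588 tumour cells of the same libraries served for comparison. Among them were 2204 set-positive cells, which passed every step except the last, and 5631 cells with neither Tfap2a nor set UMIs that passed the remaining steps.

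The cells came from N2N1G, a mouse small cell lung cancer line, grown as allografts in mice. All groups shared the line, the culture in serum-containing RPMI medium, the number of cells injected, harvest after 3 weeks and a sort for healthy single cells. The 8 droplet 3' RNA libraries came from 2 brain, 3 liver and 3 subcutaneous allografts. Cells were injected straight into the brain or under the skin, but reached the liver from the tail vein, so for liver the route and the site cannot be told apart. The labels give neither the age nor the strain of the hosts, and they do not say that libraries came from separate animals. The p-values below therefore cannot be read as covering more than these libraries. Those of the gene tests (edgeR) also draw on a spread estimated over all genes together. Very small values therefore do not reflect the spread of these few libraries alone. A single cultured line limits how far the cells stand for tumours that arise in lung. The series title asks about neuron-like programmes and the growth of this cancer in the brain.

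Tfap2a encodes AP-2 alpha, a transcription factor of surface ectoderm, cranial placodes and neural crest, the embryonic tissue that gives rise to peripheral neurons, glia and pigment cells. Cldn7 encodes a claudin of epithelial junctions, Wfdc2 a secreted protein of airway epithelium, Il17b a cytokine, and Espn an actin-bundling protein of microvilli. Small cell lung cancer is a neuroendocrine tumour in which one of the 3 Myc family genes Mycl, Mycn and Myc is often highly expressed.

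The regulatory stretches of 3 genes are shown because these genes carried the contrast described below: Mycn was among the genes most raised in set-negative cells, and Krt18 and Rab25 were among the epithelial genes that fell. They were chosen after their values were seen. Each runs from 250 bases before the transcription start to 50 bases after it, on the coding strand, from RefSeq on assembly GRCm38.p6. Capitals mark 2 motifs searched on both strands, GCCNNNGGC, the palindromic core bound by AP-2 factors, and CAGGTG or CACCTG, the E-box bound by Snail and Zeb factors. The Mycn promoter (chr12:12941787-12942086, minus strand) held neither motif. The Krt18 promoter (chr15:102027966-102028265, plus strand) held 1 AP-2 motif, 83 bases before the start, and 1 E-box, 214 bases before it. The Rab25 promoter (chr3:88548230-88548529, minus strand) held 2 E-boxes, 64 and 53 bases before the start.
Mycn: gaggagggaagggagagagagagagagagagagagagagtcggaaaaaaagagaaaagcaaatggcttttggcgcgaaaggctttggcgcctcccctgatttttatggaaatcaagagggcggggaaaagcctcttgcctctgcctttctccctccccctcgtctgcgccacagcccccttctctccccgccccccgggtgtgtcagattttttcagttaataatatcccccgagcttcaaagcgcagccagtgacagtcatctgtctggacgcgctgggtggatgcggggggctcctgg
Krt18: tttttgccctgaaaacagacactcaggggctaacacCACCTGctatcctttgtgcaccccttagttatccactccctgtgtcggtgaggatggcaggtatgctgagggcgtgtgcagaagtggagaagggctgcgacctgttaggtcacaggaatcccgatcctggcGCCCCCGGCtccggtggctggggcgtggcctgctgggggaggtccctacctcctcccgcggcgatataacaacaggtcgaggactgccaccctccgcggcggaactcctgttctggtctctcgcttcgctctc
Rab25: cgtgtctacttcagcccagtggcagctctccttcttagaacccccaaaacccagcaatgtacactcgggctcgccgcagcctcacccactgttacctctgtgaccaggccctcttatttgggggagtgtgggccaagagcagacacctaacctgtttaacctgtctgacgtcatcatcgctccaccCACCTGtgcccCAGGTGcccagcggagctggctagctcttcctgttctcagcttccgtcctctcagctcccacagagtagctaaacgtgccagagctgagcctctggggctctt

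Over all 27025 RefSeq genes with a promoter of this length, 18.5% held the AP-2 motif and 22.6% the E-box. Of 8995 tested genes with a promoter, the shares were 29.8% and 20.8%. Of the 363 such genes higher in set-negative cells than in other tumour cells, 24.2% held the AP-2 motif and 14.9% the E-box. Of the 744 lower genes, 32.5% and 28.4% did. These shares describe letters in a fixed window, not binding.

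Set-negative cells lay at the edge of a graded population. Among the 2335 tumour cells with at least 2 Tfap2a UMIs that passed the En1 step, 131 had 0 set UMIs, 165 had 1, 159 had 2 and 122 had 3, with a median of 9 in the cells above 0. On the other side of the rule, 185 cells without set UMIs had 1 Tfap2a UMI, while 68 of the set-negative cells had 2 and 63 had at least 3, up to 7. Of the set-positive cells, 95.2% had a UMI of Wfdc2, 61.0% of Il17b, 43.2% of Espn and 35.2% of Cldn7 itself, so the set was defined more by Wfdc2 than by Cldn7. A further 3 cells failed only the En1 step, and 2 failed only the 0.2% limit on eGFP and Mycl. The tumour transcripts made up 0.206% to 1.55% of the UMIs of a set-negative cell, with a median of 0.466%.

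Depth differed between the groups of cells. Set-negative cells held a median of 7461 UMIs and 2817 genes, set-positive cells 10766.5 UMIs and 3437.5 genes, and cells with neither Tfap2a nor set UMIs 7661 UMIs and 2701 genes. The cells summed in a library are compared below as CPM, the UMI counts of a gene scaled to the same total in every group of cells, since cells are not replicates. The set-negative cells held 1027493 UMIs in all, so 1 UMI weighs more there than in the other groups. No 2 libraries shared more than 56 cell barcodes.

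The cells also carried transcripts of this cancer that the rule had not used. All 131 had a UMI of Nfib, a factor of this cancer, 84 had one of Chga, a neuroendocrine granule protein, and 98 had one of Epcam, an epithelial surface protein. Myeloid cells of the same libraries show how far free RNA can carry a transcript. They had at least 5 UMIs over a macrophage and microglia list (n = 1300, median 4182.5 UMIs). A UMI of Nfib was found in 12.4% of them, of Chga in 10.7%, of Epcam in 9.92%, of Mycn in 0.462% and of Tfap2a in 0.462%. Brain replicates 1 and 2 gave 840 and 264 of these cells and subcutaneous replicates 1 to 3 gave 126, 1 and 2. They therefore stand mostly for the brain libraries. The 12 macrophage and microglia genes summed to 0 to 865 CPM in set-negative cells of the 5 libraries with at least 10 such cells, and to 2.28 to 553 CPM in other tumour cells. Csf1r, Cx3cr1 and Ptprc were at 0 in the set-negative cells, and 107 of the 131 had no UMI of that list. At least 5 such UMIs were found in 2 set-negative cells, and 1 cell of brain replicate 1 held 42. Summed endothelial genes were at 0 to 26.9 CPM in set-negative and 8.31 to 25.2 CPM in other tumour cells, fibroblast and pericyte genes at 0 to 7.94 and 1.37 to 27.9 CPM, and hepatocyte genes at 0 to 47.2 and 3.16 to 61.8 CPM. Few host cell genes could be tested. Among them 0 were higher in set-negative than in other tumour cells by edgeR, and Aldoc of the astrocyte list was lower. Over all genes tested in the 5 libraries 4.01% were higher, so 0 calls among few genes say little about host RNA. Against set-positive cells, Mbp of the oligodendrocyte list was higher by edgeR in the fit of brain replicate 2 and subcutaneous replicate 1. Doublets were not removed, and their part in the results was not tested.

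Set-negative cells made up a small share of the tumour cells at every site and were scarcest in liver. They numbered 10 of 2418 tumour cells (0.414%) and 31 of 4060 (0.764%) in the brain libraries. In the liver libraries they numbered 1 of 4114 (0.0243%), 1 of 4189 (0.0239%) and 4 of 4720 (0.0847%). In the subcutaneous libraries they numbered 60 of 4150 (1.45%), 11 of 6276 (0.175%) and 13 of 4792 (0.271%). Subcutaneous replicate 1 stands apart: 19.7% of its tumour cells had at least 2 Tfap2a UMIs, against 3.25% to 7.66% in the others, and it gave 60 of the 131 cells. Every brain and subcutaneous library lay above every liver library, although the exact 95% intervals of liver replicate 3 (0.0231% to 0.217%) and subcutaneous replicate 2 (0.0875% to 0.313%) overlapped.

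**Figure D1:**
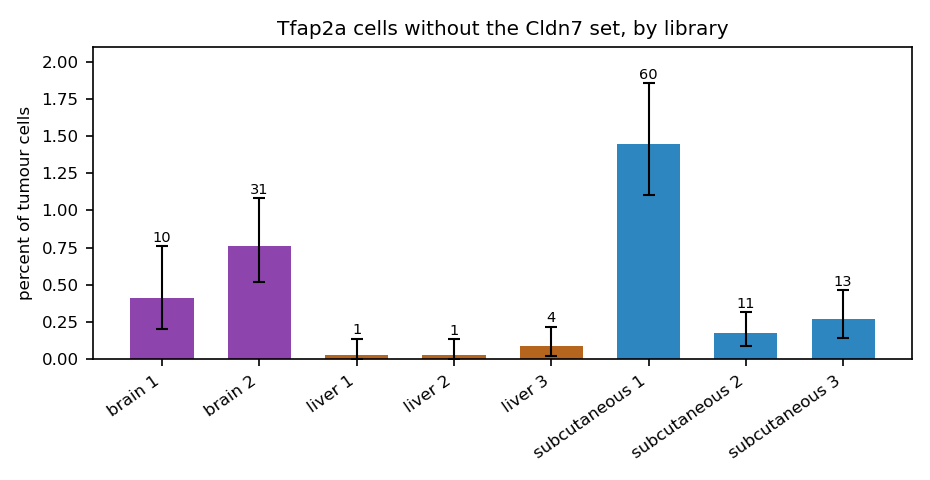
Share of tumour cells that were Tfap2a cells without the Cldn7 set, in percent of the tumour cells of each library, coloured by site (purple brain, brown liver, blue subcutaneous). Error bars are exact binomial 95% intervals, which cover counting error only, and the number above each bar is the count of cells; the 3 liver libraries lie below 0.1% and subcutaneous replicate 1 at 1.45%.

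Brain libraries averaged a share of 0.589% ± 0.247 (SD, n = 2). The liver average was 0.0443% ± 0.0350 (SD, n = 3), and the subcutaneous one 0.631% ± 0.707 (SD, n = 3). The exact permutation test over the 8 libraries gave p = 0.261 for the 3 sites, so the sites were not told apart with all libraries in. Without subcutaneous replicate 1 the same exact test gave p = 0.00952. Between pairs of sites, the two-sided exact permutation p was 0.1 (adjusted 0.15 over 3 pairs) for brain against liver and for liver against subcutaneous, and 1 for brain against subcutaneous. The smallest p that either comparison with liver can give in this test is 0.1. After every tumour cell was thinned to 5000 UMIs before the rule was applied, the 3-site exact p was 0.357.

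The largest fit used the 5 libraries with at least 10 set-negative cells (2 brain, 3 subcutaneous), chosen after the cell numbers were seen. Counts were summed over the set-negative cells and over the other tumour cells of each library and compared within libraries by edgeR's quasi-likelihood test with Benjamini-Hochberg adjustment. Of 11455 genes tested, 1423 passed an adjusted p under 0.05 (12.4%), 459 higher (4.01%) and 964 lower (8.42%). The fit set out in the original design asked for at least 20 such cells and kept only brain replicate 2 and subcutaneous replicate 1. It called 542 of 12423 genes (4.36%), 237 higher (1.91%) and 305 lower (2.46%). Of these, 206 of the higher and 295 of the lower genes were called the same way in 5 libraries. Without subcutaneous replicate 1, the 5-library count fell to 755, of which 170 higher and 533 lower genes were shared with the 1423.

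The split between higher and lower depended on scaling. The 32.3% of calls that were higher became 42.9% with the size factors of DESeq2 and 69.7% with library totals alone, and the median log2 fold change of all tested genes moved from -0.11 to -0.036 and 0.16. Set-negative cells carried 15.7% ± 1.30 (SD, n = 5) of their UMIs on Rps and Rpl genes of the cytosolic ribosome, and other tumour cells 21.1% ± 1.13 (SD, n = 5), with no overlap between the 5 libraries. That gene group was summed after the data were seen and is given without a test. Ratios of the printed CPM are larger than the fitted fold changes of raised genes for the same scaling. Log2 fold changes below are fitted values unless said otherwise.

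Against the set-positive cells, which share the Tfap2a limit of the rule, 762 of 8498 genes passed (8.97%) in the 5 libraries. Of these, 336 were higher (3.95%) and 426 lower (5.01%). The 2-library fit called 418 of 9654 genes (4.33%), 246 higher (2.55%) and 172 lower (1.78%). Without subcutaneous replicate 1 the 5-library count fell to 241, of which 99 higher and 137 lower genes were shared with the 762. Of the genes called against other tumour cells, 253 of 459 higher and 394 of 964 lower were called the same way against set-positive cells; both comparisons use the same set-negative cells.

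Within the Myc family, Mycn was among the most raised genes of the set-negative cells, while Mycl, which the rule had used, was at a lower level than in the other tumour cells of the brain and subcutaneous libraries. Mycn (chromosome 12, 12936093 to 12941914, minus strand, GRCm38) encodes N-Myc, a Myc paralogue of developing neural tissue. Its level in set-negative cells was 362 and 134 CPM in the brain libraries and 210, 215 and 102 CPM in the subcutaneous ones. Set-positive cells had 52.8, 45.5, 50.7, 32.0 and 29.4 CPM in the same order, and other tumour cells 31.9, 29.2, 33.2, 23.4 and 22.5 CPM. Set-negative cells were above both groups in 5 of 5 libraries, with no overlap. Over other tumour cells the fitted rise was 2.44 on the log2 scale (SE 0.20, edgeR adjusted p = 2.9e-30), and over set-positive cells 1.98 (SE 0.18, edgeR adjusted p = 1e-25). The 2-library fits gave 2.26 and 1.76. In the 6 liver cells together Mycn had 2 UMIs, or 34.9 CPM, against 12.2 CPM in other liver tumour cells.

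A Mycn UMI was found in more set-negative cells than in the other groups. With each cell thinned to 3000 UMIs, 33.6% of set-negative cells had a Mycn UMI (exact 95% interval 25.5% to 42.5%, n = 128), against 11.1% of set-positive cells and 6.32% of other tumour cells. Unthinned, 68 of the 131 had one, 25 had at least 3 UMIs and the highest had 12. Among non-cycling cells, where 2 libraries could be fitted, the log2 fold change was 1.70 (edgeR adjusted p = 0.000393) against other tumour cells but 0.97 (edgeR adjusted p = 0.22) against set-positive cells. Mycl, part of the rule and therefore not tested, was at 1748 to 2986 CPM in set-negative, 3115 to 4230 CPM in set-positive and 4054 to 6478 CPM in other tumour cells of the 5 libraries. In liver the 6 set-negative cells had 7696 CPM of Mycl and other tumour cells 7605 CPM. Myc itself rested on 15 UMIs in set-negative cells and passed narrowly (log2 fold change 1.34, edgeR adjusted p = 0.0496), with 5 of the UMIs in 1 cell.

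In the list of 19 Myc family and Rb and p53 circuit genes, 16 were tested against other tumour cells. Of these, 5 were higher (Myc, Mycn, Cdkn1a, Cdkn1b and Mdm2) and 1 lower (Cdkn2a), where 4.01% of all genes were higher and 8.42% lower, with a median log2 fold change of 0.26 against -0.11 over all genes. Cdkn1a, the cyclin-dependent kinase inhibitor p21, was at 346, 244, 688, 631 and 322 CPM in set-negative cells of brain replicates 1 and 2 and subcutaneous replicates 1 to 3. Other tumour cells had 120 to 182 CPM, below every set-negative value. Cdkn1a rose by 1.29 on the log2 scale (SE 0.15, edgeR adjusted p = 1.7e-15), and by 1.11 over set-positive cells. Cdkn1b, the related inhibitor p27, rose by 1.05 and Mdm2, the ubiquitin ligase of p53, by 0.80 on the log2 scale. Cdkn2a, which encodes the p16 and p19 inhibitors, fell by 0.68.

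**Figure D2:**
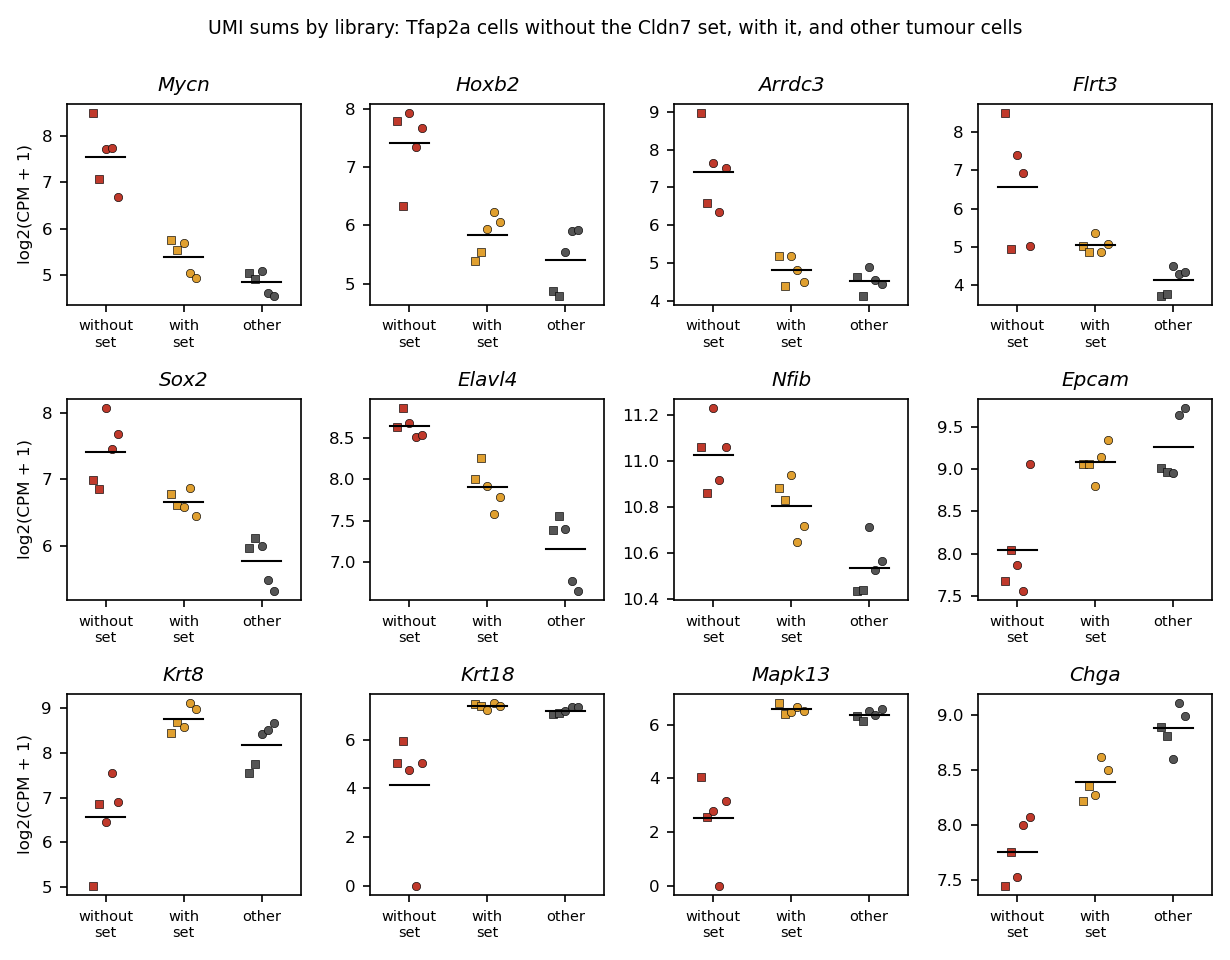
Levels of 12 genes as log2(CPM + 1) of UMIs summed per library, for Tfap2a cells without the Cldn7 set (red), with it (yellow) and other tumour cells (grey); squares are the 2 brain and circles the 3 subcutaneous libraries, lines are means of 5, and each panel has its own scale. The red Mycn, Hoxb2 and Arrdc3 points lie above all others and the red Krt18 and Mapk13 points below all others, while Nfib differs by under 1 log2 unit.

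Genes of the Hoxb cluster, which encode homeodomain factors that set position along the body axis, were raised as well. Of 29 Hox genes listed, 9 were tested and 4 were higher, with 0 lower and a median log2 fold change of 0.51, where 4.01% of all tested genes were higher. With library totals alone, 5 were higher, where 1127 of all 11455 tested genes were higher. Hoxb2 was at 220, 79.7, 244, 161 and 204 CPM in set-negative cells and at 26.7 to 59.9 CPM in other tumour cells of the 5 libraries, without overlap. The fitted rise of Hoxb2 was 1.78 (SE 0.19, edgeR adjusted p = 6.6e-18), and 1.54 over set-positive cells. Hoxb6 was at 519, 234, 351, 309 and 361 CPM against 88.0 to 126 CPM in other tumour cells (log2 fold change 1.39), and against set-positive cells the difference was 0.89. Hoxb8 was higher by 1.10 and Hoxb5 by 0.90 on the log2 scale. In non-cycling cells, where 2 libraries could be fitted, Hoxb2 was no longer called (0.97, edgeR adjusted p = 0.63). All 4 genes lie in 1 cluster on chromosome 11, and the posterior Hoxd genes could not be compared because the rule used them.

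The genes with the largest rise among those at 10 CPM or more, in the same direction in all 5 libraries, were Adra2c, Gpat3, St8sia2, Islr, Tenm1, Rasl11b, Ppp1r14c, Arrdc3, Bcl11a, Dact1, Flrt3 and Mycn. Adra2c changed most among them and Mycn, at 2.44, least. Several are known from developing neurons: St8sia2 makes the polysialic acid of Ncam1, Flrt3 is a membrane protein of axon guidance and cell adhesion, Tenm1 a teneurin of synaptic partner matching, and Bcl11a a zinc-finger repressor. Adra2c, an adrenergic receptor, rested on 19 UMIs and Tenm1 on 10. Both were no longer called in cells thinned to 5000 UMIs, which left 3 libraries with 10 such cells (edgeR adjusted p = 0.0608 and 0.317), and neither was Gpat3, an enzyme of triglyceride synthesis (0.0587).

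Arrdc3, an arrestin-domain protein of receptor trafficking, was at 503, 94.6, 198, 80.6 and 181 CPM in set-negative cells and at 16.5 to 28.8 CPM in other tumour cells. Arrdc3 rose by 2.75 on the log2 scale (SE 0.21, edgeR adjusted p = 5.1e-35), and by 2.58 over set-positive cells. Only 36 of the 131 cells had an Arrdc3 UMI, and 1 cell had 23. Flrt3 was at 362, 29.9, 167, 121 and 31.4 CPM against 12.3 to 21.5 CPM, with a log2 fold change of 2.49. The set-negative values of Flrt3 varied more between libraries than those of Mycn, and 2 of them lay within the 28.2 to 40.1 CPM of set-positive cells. Of the 12 leading raised genes, 3 were still called in non-cycling cells (2 libraries): Mycn, Bcl11a and Islr. The other 9 were not (Arrdc3 0.98, edgeR adjusted p = 0.93; Flrt3 0.79, edgeR adjusted p = 0.95; St8sia2 1.25, edgeR adjusted p = 0.95; Rasl11b 2.65, edgeR adjusted p = 0.23). Bcl11a was at 110, 94.6, 145, 121 and 15.7 CPM against 3.70 to 25.3 CPM. Its lowest value, in subcutaneous replicate 3, lay within the range of the other tumour cells, though above those of its own library. At 3000 UMIs per cell, 21.9% of set-negative, 10.05% of set-positive and 2.37% of other tumour cells had a Bcl11a UMI. Among cells with neither Tfap2a nor set UMIs the share was 0.449%. Bcl11a was thus also more frequent in set-positive than in other tumour cells.

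Against set-positive cells the leading raised genes were Rasl11b, Arrdc3, Mycn, St8sia2, Zcchc3, Ranbp6, Aard and Islr. Rasl11b, a Ras-like GTPase, was at 31.5, 19.9, 35.7, 94 and 39.3 CPM in set-negative, 2.39 to 6.41 CPM in set-positive and 3.82 to 5.73 CPM in other tumour cells. Its levels in both comparison groups overlapped each other and lay below every set-negative value, and its log2 fold change was 2.84 against other tumour and 2.73 against set-positive cells. Zcchc3, a zinc-finger protein of nucleic acid sensing, was at 119 to 362 CPM, against 43.6 to 58.2 CPM in set-positive cells (log2 fold change 1.82), but in non-cycling cells Zcchc3 was not called (0.29, edgeR adjusted p = 0.93), nor was Islr (0.63, edgeR adjusted p = 0.66). In thinned cells Aard (1.23, edgeR adjusted p = 0.25), Islr (0.91, edgeR adjusted p = 0.17) and Ranbp6 (1.45, edgeR adjusted p = 0.21) were not called. Ranbp6 was no longer called without subcutaneous replicate 1 (edgeR adjusted p = 0.0629) or replicate 3 (0.0955), and St8sia2 without subcutaneous replicate 1 (0.09).

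Epithelial junction and keratin genes were lower. Of 45 listed, 36 were tested against other tumour cells, 22 were lower and 0 higher, where 8.42% of all tested genes were lower. The median log2 fold change was -2.01, or -1.78 with genes at 0 set to their bound, against -0.11 over all genes. Against set-positive cells 16 of 24 were lower and 0 higher, where 5.01% of all tested genes were lower. The rule had asked for the absence of 4 genes, some of them epithelial, so these counts are not independent of the choice of cells. The 5631 cells with neither Tfap2a nor set UMIs met the same absence, and against them 17 of 27 tested genes were lower and 0 higher. Over all genes in that fit, 921 of 8970 were lower. Without subcutaneous replicate 1 the count against other tumour cells was 14 of 36, where 576 of all 11397 genes were lower. In cells thinned to 5000 UMIs it was 11 of 36, where 418 of all 11309 genes were lower.

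Krt18 and Krt8 form the paired keratin filaments of simple epithelia. Krt18 was at 31.5, 59.7, 25.8, 0 and 31.4 CPM in set-negative cells, at 146 to 179 CPM in set-positive cells and at 130 to 161 CPM in other tumour cells. The groups did not overlap, and Krt18 fell by 2.41 on the log2 scale (SE 0.25, edgeR adjusted p = 1.1e-19), and by 2.42 from set-positive cells. Krt8 was at 31.5, 114, 87.3, 188 and 118 CPM, against 349 to 556 CPM in set-positive cells and 186 to 404 CPM in other tumour cells. Its log2 fold change was -1.82 and -2.16, and the set-negative level in subcutaneous replicate 2 lay just above the lowest level of other tumour cells. Cells with neither Tfap2a nor set UMIs averaged 113 CPM ± 17.0 (SD, n = 5) of Krt18 and 206 CPM ± 91.4 (SD, n = 5) of Krt8. Against those cells the log2 fold change was -1.97 for Krt18 and -1.09 for Krt8.

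Epcam was reduced rather than lost. It was at 204, 264, 232, 188 and 534 CPM in set-negative cells, 445 to 650 CPM in set-positive cells and 493 to 843 CPM in other tumour cells. The value of subcutaneous replicate 3 overlapped both ranges. Epcam fell by 1.38 on the log2 scale (SE 0.15, edgeR adjusted p = 9.9e-19), and by 1.04 from set-positive cells. At 3000 UMIs per cell, 57.8% of set-negative, 72.8% of set-positive and 79.2% of other tumour cells had an Epcam UMI.

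Cdh1, the E-cadherin of adherens junctions, had 0 UMIs in all 131 set-negative cells, which allows a share of up to 2.29% of cells with a UMI at this depth. Other tumour cells had 10.8 to 21.8 CPM and set-positive cells 12.7 to 20.3 CPM. With 3 UMIs over the group as the floor, Cdh1 was at least 5.5-fold lower than in other tumour cells and at least 4.8-fold lower than in set-positive cells. At 3000 UMIs, 6.09% of other tumour cells had a Cdh1 UMI, and unthinned 3.31% of myeloid cells did, so its level was low throughout. Ap1m2, an adaptor of epithelial sorting to the basolateral membrane, was also at 0 and at least 4.1-fold lower than in other tumour cells. Among genes with UMIs left, Rab25, a GTPase of apical recycling, fell by 3.78 on the log2 scale (2 UMIs in 5 libraries). Ocln, an occludin of tight junctions, fell by 3.43 (2 UMIs), Esrp1, a splicing factor of epithelia, by 3.21, and Spint2, a protease inhibitor of epithelial surfaces, by 2.47. Cldn3, a second claudin, fell by 0.92. Tjp1, which encodes the junction scaffold ZO-1, did not pass (-0.28, edgeR adjusted p = 0.76).

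The genes with the lowest fitted values by the same naming rule were Zg16, Bex4, Cdh1, Ap1m2, Nebl, Tex14, R3hdml, Syne4, Grb7, Tmem266, Fut2 and Cmtm7. Genes at 0 UMIs stand first in this order, but their fold change is not defined and only their bounds give a size. Zg16, Bex4 and Nebl had 0 UMIs in the 5 libraries and were at least 6.7-fold, 5.0-fold and 3.5-fold lower than in other tumour cells. Of the 12, 3 were still called in non-cycling cells (Tex14, R3hdml and Syne4) and 4 with at least 3 Tfap2a UMIs (these and Tmem266), each fitted in 2 libraries. In thinned cells Nebl (edgeR adjusted p = 0.106) and Ap1m2 (0.102) were not called, and with no replicate block Bex4 was not (0.20). R3hdml went from 33.2 to 66.7 CPM in other tumour cells to 2 UMIs in set-negative cells of the 5 libraries (log2 fold change -5.05). Syne4, a nesprin that ties the nucleus of epithelial cells to kinesin, had 2 UMIs in the 5 libraries, both in subcutaneous replicate 3 (-4.88), and 3 more in the liver cells. Mapk13, the p38 delta kinase of epithelia, was outside the rule and picked after its values were seen. It was at 0 to 15.7 CPM in set-negative cells, 83.5 to 111 CPM in set-positive cells and 68.9 to 94.6 CPM in other tumour cells (log2 fold change -4.03 and -3.97).

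Against set-positive cells the leading lower genes were Cdh1, R3hdml, Grb7, Ceacam10, Syne4, Vwf, Fut2 and Ccdc85c. Vwf, better known from endothelium, was at 27.4 to 40.5 CPM in set-positive, 7.18 to 33.2 CPM in other tumour and 0 to 4.98 CPM in set-negative cells (log2 fold change -4.23 against set-positive cells). The endothelial genes Cdh5, Cldn5, Tie1 and Emcn were at 0 in set-negative cells. Without subcutaneous replicate 1, Fut2 (edgeR adjusted p = 0.06) and Ccdc85c (0.24) were no longer called against set-positive cells.

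**Figure D3:**
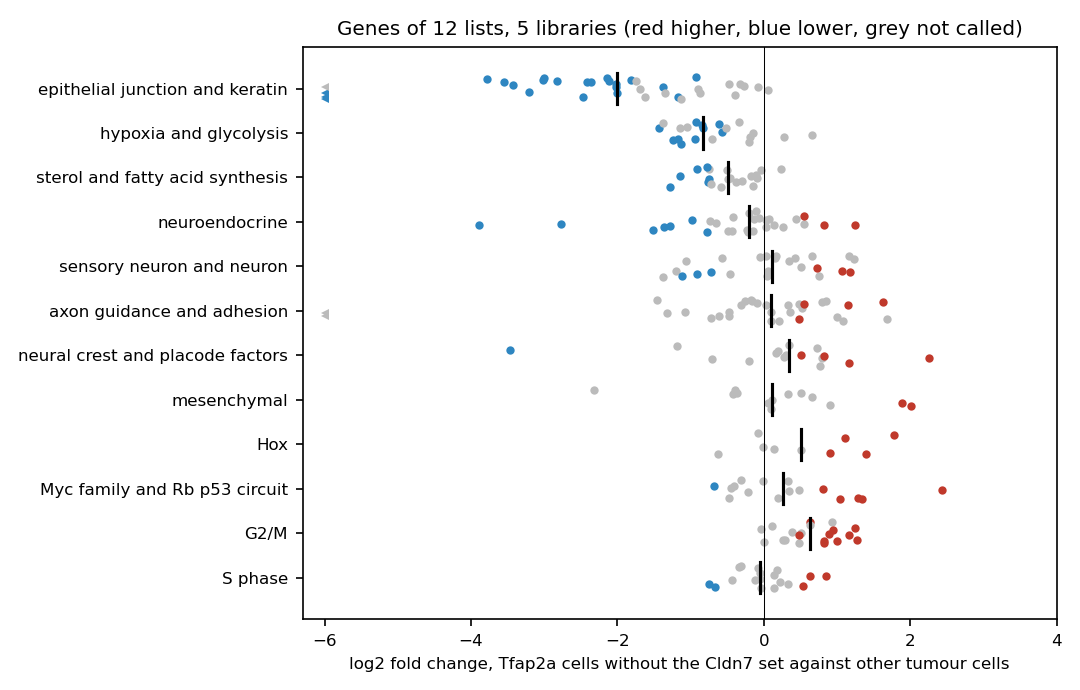
Fitted log2 fold change of each tested gene of 12 lists, Tfap2a cells without the Cldn7 set against other tumour cells in 5 libraries; red and blue points passed an edgeR adjusted p under 0.05, grey did not, black bars are list medians and triangles at the left edge are genes with 0 UMIs in the set-negative cells, whose fold change is not defined. The epithelial list holds 22 blue and 0 red genes, and the G2/M list 10 red and 0 blue.

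Of 20 mesenchymal genes, 13 were tested and 2 were higher, Zeb2 and Tgfb2, with 0 lower and a median of 0.11, where 4.01% of all tested genes were higher and their median was -0.11. Zeb2, a repressor of epithelial genes, was at 15.7, 99.6, 127, 121 and 110 CPM against 16.7 to 29.1 CPM in other tumour cells (log2 fold change 1.89, SE 0.25, edgeR adjusted p = 5.3e-12). Brain replicate 1, with 1 UMI, was the exception to its rise. Tgfb2, a growth factor, was at 45.6 to 148 CPM against 5.20 to 22.6 CPM, a log2 fold change of 2.01. Zeb1 (0.65, edgeR adjusted p = 0.17) and Cdh2, the N-cadherin (-0.36, edgeR adjusted p = 0.30), did not pass, and Vim had 2 UMIs.

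Of 35 neural crest and placode factors, 17 were tested. Of these, 4 were higher, Snai2, Twist1 and Id1 among them, and Phox2a was lower, with a median of 0.34, beside 4.01% and 8.42% of all tested genes. Twist1, a factor of migrating crest and mesoderm, was at 24.9 to 70.7 CPM against 9.82 to 26.3 CPM (log2 fold change 1.17). Snai2 rested on 13 UMIs in 11 cells, did not pass in the 2-library fit (edgeR adjusted p = 0.55) and was lost without subcutaneous replicate 3 (edgeR adjusted p = 0.08). Phox2a, an autonomic neuron factor, fell to 1 UMI (-3.47). Sox2, a factor of neural progenitors and lung epithelium, was at 126, 114, 268, 175 and 204 CPM against 38.9 to 68.0 CPM, with a log2 fold change of 1.46 and 0.83 against set-positive cells. Of 12 AP-2 family and cofactor genes, 8 were tested and 2 changed, both of the Cited family of AP-2 cofactors. Cited2 rose by 1.01 and Cited4 fell by 2.59 on the log2 scale, from 90.3 to 622 CPM in other tumour cells to 27.8 to 94.4 CPM.

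Several secretory products of neuroendocrine cells were lower, while the factor Nfib did not pass the test. Nfib, at 1862 to 2405 CPM against 1385 to 1681 CPM, did not pass (0.19, edgeR adjusted p = 0.30). Of 30 neuroendocrine genes, 29 were tested, 3 were higher (Foxa2, Ncam1 and Pcsk2) and 7 lower (Chga, Scg5, Calca, Resp18, Uchl1, Grp and Bex1), with a median of -0.20, where 4.01% of all tested genes were higher and 8.42% lower. With library totals alone, 6 were higher and 7 lower, where 1127 of all 11455 tested genes were higher and 491 lower. The summed list was not lower. Its median over the 5 libraries was 5049 CPM in set-negative, 4527 in set-positive and 4474 in other tumour cells, with overlapping ranges. Chga, the chromogranin of dense-core granules, was at 173, 214, 183, 255 and 267 CPM against 386 to 551 CPM without overlap (log2 fold change -1.37, SE 0.15, edgeR adjusted p = 1.5e-16). Pcsk2, a prohormone convertase, rose by 1.25, and Resp18, another granule protein, fell by 3.89 to 2 UMIs.

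Against set-positive cells, 4 of 25 neuroendocrine genes were higher (Nkx2-1, Chgb, Ncam1 and Pcsk2) and 5 lower (Chga, Scg5, Calca, Uchl1 and Bex1). Over all genes tested there, 3.95% were higher and 5.01% lower. Chgb, a second chromogranin, thus went the opposite way to Chga. Nkx2-1, the lung lineage factor, was higher in that comparison (0.64, edgeR adjusted p = 0.0002) and did not pass against other tumour cells (0.26, edgeR adjusted p = 0.30). Chga was lower by 0.76, but was not called in cells thinned to 5000 UMIs (edgeR adjusted p = 0.12). Sftpc, a surfactant protein listed as a marker of other subsets of this line, was lower than in other tumour cells (-2.13), as were Sfrp5, Rem2 and Galnt14 of the same list of 6.

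Few of the listed neuronal genes passed, with calls in both directions. Of 30 sensory neuron and neuron genes, 24 were tested, with 3 higher, 3 lower and a median of 0.11, beside 4.01% higher and 8.42% lower over all genes. Elavl4, a neuronal RNA-binding protein, was at 363 to 463 CPM against 99.8 to 187 CPM (log2 fold change 1.18). Gap43, a growth cone protein, was at 250 to 488 CPM against 90.9 to 188 CPM (1.07). Stmn2, a microtubule regulator of growing axons, was lower (-1.12), although subcutaneous replicate 2, at 175 CPM, exceeded its other tumour cells at 145 CPM. Of 40 axon guidance and adhesion genes, 31 were tested, and Efna5, Chl1, Ncam1 and Cadm1 were higher with none lower. Ncam1, the neural cell adhesion molecule, was at 503, 453, 518, 497 and 306 CPM against 228 to 290 CPM (0.54, edgeR adjusted p = 0.0024). In the 2-library fit Ncam1 was not called (edgeR adjusted p = 0.094).

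Genes of mitosis were higher in the summed counts. Of 20 G2/M genes, all tested, 10 were higher and 0 lower, with a median of 0.63, while of 18 S phase genes 3 were higher and 2 lower. Over all tested genes, 4.01% were higher and 8.42% lower. Top2a, the topoisomerase of dividing cells, was at 267, 329, 440, 134 and 354 CPM against 117 to 212 CPM (0.64, edgeR adjusted p = 0.00082). The G2/M count was 5 without subcutaneous replicate 1 (179 of all 11397 genes higher) and 5 without subcutaneous replicate 3 (366 of 11588). The count was 4 by DESeq2 (279 of 11455) and 16 with library totals alone (1127 of 11455). The share of cells with at least 4 UMIs over the G2/M list, at 3000 UMIs per cell, was 43.0% ± 16.8 (SD, n = 5) in set-negative and 33.1% ± 1.56 (SD, n = 5) in other tumour cells. It was higher in 4 of 5 libraries, and subcutaneous replicate 2 was the exception, with 18.2% against 30.5%. The two-sided exact permutation p was 0.25, where 0.0625 is the smallest possible, so the shares were not told apart. Set-positive cells had 41.8% ± 1.89 (SD, n = 5), and without thinning the shares were 49.7% in set-negative and 48.5% in other tumour cells.

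Part of the glycolysis and hypoxia genes were lower. Of 22 listed, 21 were tested, 10 were lower and 0 higher, with a median of -0.83, where 8.42% of all tested genes were lower. With library totals alone 8 were lower and 1 higher, where 491 of all 11455 tested genes were lower and 1127 higher. Against set-positive cells 7 of 19 were lower, where 5.01% of all tested genes were lower. Aldoa, a glycolytic aldolase, fell by 1.18, Eno1, an enolase, by 1.13, Ldha, the lactate dehydrogenase subunit, by 0.94 and Bnip3, a mitophagy receptor induced by hypoxia, by 1.43 on the log2 scale. Vegfa, at 0 to 53.7 CPM, did not pass (-0.19, edgeR adjusted p = 0.83). In non-cycling cells, where 2 libraries could be fitted, 0 of 22 of these genes passed by edgeR, against 196 of 11355 over all genes (938 of all genes at an unadjusted p under 0.05). Of 20 sterol and fatty acid synthesis genes tested, 6 were lower and 0 higher. Of 20 immediate early and heat shock genes, 6 were lower, Fos and Junb among them, and 1 was higher. Of 16 Notch genes, Hey1, a Notch target, was higher (1.45, edgeR adjusted p = 0.0041) and Mfng lower, a share near that of all genes (4.01% higher, 8.42% lower). Of 17 Wnt and Bmp genes, Sfrp1, Bmp2 and Bmp4 were higher and Sfrp5 lower. Bmp2, a secreted ligand, was at 62.9, 39.8, 21.8, 67.2 and 23.6 CPM against 8.29 to 9.83 CPM, with no overlap (1.69, edgeR adjusted p = 0.00022).

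Levels changed step by step with set UMIs inside the Tfap2a population. The steps were 0 (131 cells), 1 to 2 (324), 3 to 5 (387) and at least 6 set UMIs (1493), with median depths of 7461, 7865, 8743 and 12096 UMIs, so depth rose along with the set. Summed over all libraries, Mycn went from 182 to 84.5, 56.6 and 24.6 CPM along these steps. Hoxb2 went from 191 to 80.6, 66.7 and 51.8 CPM, and Flrt3 from 130 to 50.4, 39.5 and 26.4 CPM. These 3 genes were highest in the set-negative cells, and in CPM the largest step lay next to them. As ratios this held for Hoxb2 and Flrt3 but not for Mycn, whose last step was slightly larger. Krt18 rose from 34.1 to 80.6, 105 and 188 CPM, Krt8 from 110 to 209, 280 and 545 CPM, and Mapk13 from 9.73 to 31.6, 50.7 and 139 CPM. These values describe a grading by the rule's own genes and carry no test.

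**Figure D4:**
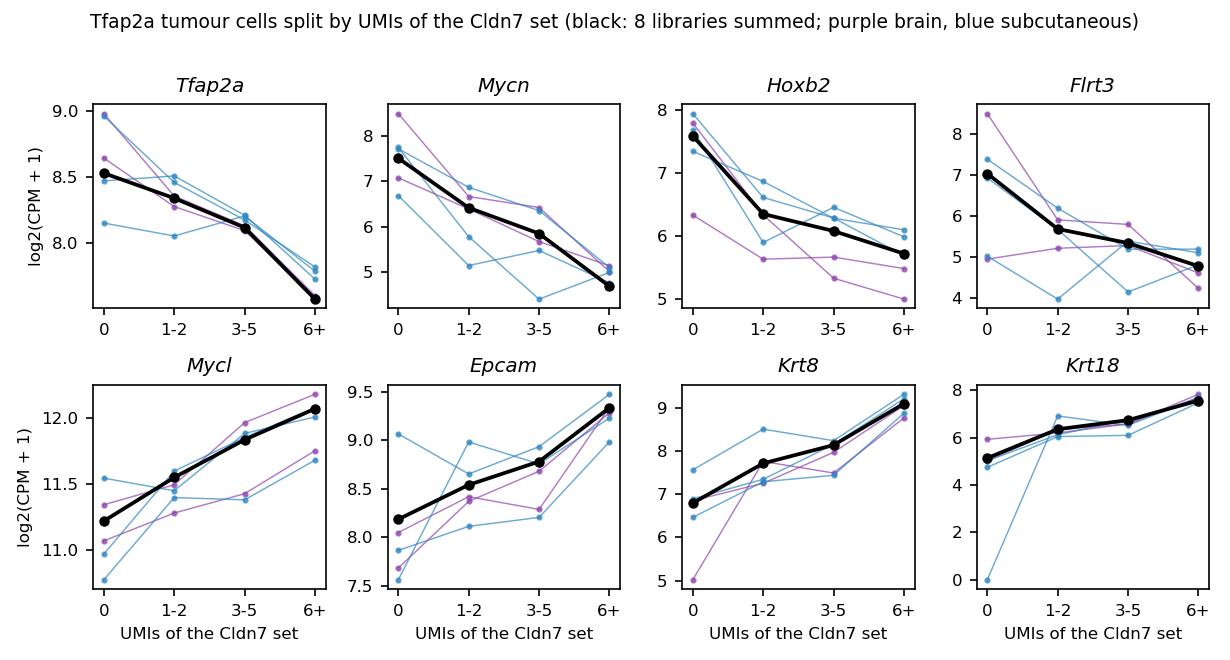
Levels of 8 genes as log2(CPM + 1) in Tfap2a tumour cells split by their UMIs of the Cldn7 set (0, 1 to 2, 3 to 5, 6 or more); black lines sum all 8 libraries, purple lines are the 2 brain and blue lines the 3 subcutaneous libraries, and each panel has its own scale. Tfap2a, Mycn, Hoxb2 and Flrt3 fall and Mycl, Epcam, Krt8 and Krt18 rise from left to right in the summed lines, while single libraries cross between neighbouring steps.

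Mycn and keratin UMIs could occur in the same cell: of the 131, 35 had UMIs of both Mycn and Krt8 or Krt18. A cell without a UMI may still express the gene at this depth. Summed over all libraries, the 68 cells with 2 Tfap2a UMIs had 110 CPM of Mycn and 112 CPM of Hoxb2. The 63 cells with at least 3 had 253 CPM of Mycn and 269 CPM of Hoxb2. Cells further inside the rule had more of both than those at its margin, which is a description without a test, and the libraries do not contribute alike to both groups. With only the cells of at least 3 Tfap2a UMIs, which 2 libraries had in number, 358 genes were called against other tumour cells, and the Mycn fold change was 2.68 on the log2 scale (edgeR adjusted p = 1.35e-13).

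Between brain and subcutaneous tumours, few genes differed inside the set-negative cells. Of 2812 genes tested over 2 brain and 3 subcutaneous libraries, 16 passed (0.569%), 7 higher (0.249%) and 9 lower (0.32%) in brain. Mbp, the myelin basic protein of oligodendrocytes, was at 267 and 284 CPM in brain and 31.7, 13.4 and 31.4 CPM in subcutaneous cells (log2 fold change 3.27, SE 0.38, edgeR adjusted p = 5.7e-08). Other tumour cells had 184 and 120 CPM of Mbp in brain and 31.1 to 37.3 CPM in subcutaneous tumours, and Mog and Mag, further myelin genes, were at 0 in the set-negative cells. The part of free RNA from host glia in the Mbp difference was not tested. Aldoa was at 157 and 119 CPM in brain and 784, 725 and 432 CPM in subcutaneous cells (-2.25, edgeR adjusted p = 8e-06), and Bnip3, Ldha, Eno1, Pgam1 and Higd1a were lower in brain as well. Other tumour cells of the same libraries had 290 and 277 CPM of Aldoa in brain and 1060 to 1346 CPM under the skin. Id2 and Id3, inhibitors of helix-loop-helix factors, were also lower in brain (-1.78 and -1.57). Id3 was not called by DESeq2 (adjusted p = 0.22), nor by edgeR without brain replicate 1 (adjusted p = 0.20), subcutaneous replicate 1 (0.25) or subcutaneous replicate 3 (0.062). Mycn did not differ beyond its spread (0.29, SE 0.38, edgeR adjusted p = 0.91), nor did Hoxb2 (-0.74, SE 0.38, edgeR adjusted p = 0.64). With the replicate number as a block, 0 genes passed by edgeR (141 at an unadjusted p under 0.05), and DESeq2 called 10.

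**Figure D5:**
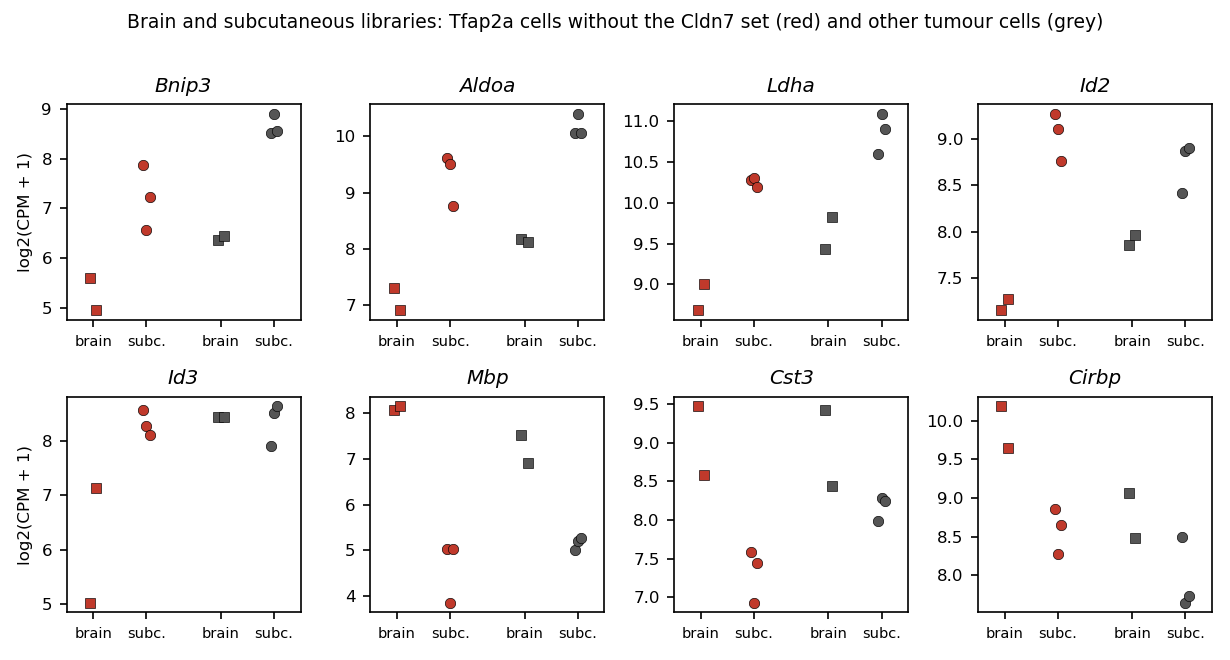
Levels of 8 genes as log2(CPM + 1) in the 2 brain (squares) and 3 subcutaneous (circles) libraries, for Tfap2a cells without the Cldn7 set (red) and other tumour cells (grey), with a scale for each panel. Aldoa and Ldha are lower in brain in both kinds of cell, while Id3 is lower in brain only among the red points.

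The difference between set-negative and other tumour cells was itself compared between the sites. An interaction term of cell kind and site passed for 5 of 11455 genes (0.0436%): Cdc20, Tm4sf1, Id3, Txnip and Kif2c. Id3 was at 31.5 and 139 CPM in set-negative cells of brain and 381, 309 and 275 CPM under the skin, while other tumour cells had 346 and 347 CPM in brain and 239, 366 and 398 CPM under the skin. The log2 difference between the sites was -1.76 (SE 0.36, edgeR adjusted p = 0.004). Leaving out brain replicate 1 left 0 genes passing by edgeR (443 at an unadjusted p under 0.05). Without subcutaneous replicate 1, 3 genes passed and Txnip was the only one of the 5 among them. Without subcutaneous replicate 3, 2 passed, Id3 and Tm4sf1. Without brain replicate 2, 9 passed, of which Cdc20 and Id3 were among the 5. DESeq2 called 0 (203 at an unadjusted p under 0.05). For Mycn this term was 0.11 (SE 0.38), so its rise over other tumour cells was not shown to depend on the site.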

How the data were processed

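Messenger RNA of single cells was measured in 8 droplet 3' libraries. The deposited values are UMI counts per gene and cell barcode, made by the authors with Cell Ranger 3.0.0, per the file headers. The submitters' processing notes also name STAR and the build mm10. The gene annotation and the strand setting of the counting are not given in the sources used here, so genes that overlap on opposite strands, as in the Hoxb cluster and at Mycn, may share reads. Of 22056 gene identifiers, 21952 matched the GRCm38 annotation used for positions. The libraries held 27140735 to 63049542 UMIs. The set-negative cells summed to 63571 to 504008 UMIs in each of the 5 libraries fitted, and intervals and floors cover counting error only.

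The members, gene lists and contrasts were chosen with earlier results of these data known. No clustering was done. In all, 33 gene lists were used. UMI counts were summed over cells of each kind within a library, scaled by TMM and filtered by filterByExpr, and tested with edgeR 4.0.16 (quasi-likelihood, library as a block, Benjamini-Hochberg adjustment over all tested genes) in R 4.3.3. Genes of the rule were not tested. The planned minimum of 20 set-negative cells kept 2 libraries and left 1 residual degree of freedom, so fits with a minimum of 10 (5 libraries) were added after the cell numbers were seen. Site contrasts among set-negative cells could not include liver, which had 6 such cells. Named genes were the 12 (against other tumour cells) or 8 (against set-positive cells) in each direction with the largest change at 10 CPM or more and the same direction in every library, and up to 4 of each list; other named genes were picked with their values seen. For genes at 0, folds were computed against a floor of 3 UMIs over the group. On simulated counts for 5 libraries against other tumour cells (11463 genes), 61% of 2-fold and 98% of 4-fold changes were recovered and 5.92% of calls were false. For 5 libraries against set-positive cells (8403 genes) these were 68%, 95% and 1.81%. The simulation changed only genes at 20 CPM or more in the compared cells, gave every gene the same spread and held no bursts from single cells. These rates therefore do not cover genes at lower levels or genes that rest on 1 cell.

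Shares were compared by exact permutation over libraries, in Python 3.11.15 with scipy 1.17.1. Alternatives were DESeq2 1.42.0, its size factors, library totals alone, no filter on low counts, other limits of the rule, thinned, depth-matched and non-cycling cells, fits with and without a block, and leaving out each library.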

Additional observations from a re-analysis of the deposited data

Results flagged for a closer look

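For 5 genes the difference between set-negative and other tumour cells differed between brain and subcutaneous libraries by an interaction term (edgeR, 2 brain and 3 subcutaneous libraries), out of 11455 tested. Each term was lower in brain. Cdc20, an activator of the anaphase-promoting complex, had an adjusted p of 0.00105 by edgeR and a log2 difference of -1.79 (SE 0.33). It was at 94.4 and 209 CPM in set-negative cells of brain and 411, 94 and 456 CPM under the skin. Other tumour cells had 324 and 335 CPM of Cdc20 in brain and 198, 153 and 199 CPM under the skin. Id3, an inhibitor of helix-loop-helix factors, had an edgeR adjusted p of 0.00403. Kif2c, a kinesin of the mitotic spindle, had an edgeR adjusted p of 0.0496 and was at 15.7 and 19.9 CPM in brain and 99.2, 26.9 and 141 CPM under the skin, against 34.3 to 49.3 CPM in other tumour cells.

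Some counts of these genes in set-negative cells were low. Cdc20 had 6 UMIs in brain replicate 1 and 7 in subcutaneous replicate 2, and Id3 had 2 in brain replicate 1. Kif2c had 1 and 4 UMIs in the brain libraries and 2 in subcutaneous replicate 2. For Tm4sf1 and Txnip, much of the count came from 1 cell. Tm4sf1, a membrane protein, had an edgeR adjusted p of 0.00403, with 17 of its 18 UMIs in 1 cell of subcutaneous replicate 1 and 0 UMIs in the other 4 libraries. Txnip, a thioredoxin-binding protein, had an edgeR adjusted p of 0.00466, with 32 of its 73 UMIs in 1 cell. Without brain replicate 1, 0 of the 5 genes passed by edgeR, and 0 passed by DESeq2. The part of single cells and of the cell cycle in these differences was not tested.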

How the results depend on the processing

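Against other tumour cells, the 1423 genes called in 5 libraries became 670 by DESeq2, 603 in thinned cells (3 libraries), 484 of only 2296 tested genes with depth-matched cells, 580 of 2260 with depth-matched cells lacking Tfap2a and the set (142 of its 282 higher calls were among the 459), 358 with at least 3 Tfap2a UMIs and 196 in non-cycling cells (both 2 libraries), and 755 to 1207 without 1 library. Against set-positive cells, 762 became 336, 208 (thinned), 337 (at least 3 Tfap2a UMIs), 49 (non-cycling), 399 with no replicate block and 241 to 714 without 1 library. The 2-library counts of 542 and 418 became 120 and 5 by DESeq2 (413 of the latter comparison at an unadjusted p under 0.05) and 280 and 86 with no replicate block. Between brain and subcutaneous cells, 16 genes became 26 with library totals alone, 10 by DESeq2, 9 in thinned cells and 14 to 31 without 1 library. Interaction calls, 5 at first, became 8 with library totals alone, 0 by DESeq2 (203 unadjusted), 0 with depth-matched cells lacking Tfap2a (150 unadjusted) and 0 to 9 without 1 library. The cause of these changes was not tested beyond the smaller numbers of libraries named.

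The exact p of the share between sites was 0.00952 without subcutaneous replicate 1 and 0.152 to 0.495 without another library. The excess of cycling cells over 8 libraries, 10.8 percentage points (exact permutation p = 0.359), was -1.74 without thinning (exact p = 0.859) and 9.81 by the S phase list (exact p = 0.0156), which marks most cells of both kinds. These means include liver libraries with 1 set-negative cell each. It was 3.23 to 17.9 without 1 library. With the 5 libraries it was 9.87, 4.50 by the S phase list (exact p = 0.125), and 5.65 to 15.4 without 1 of them.

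Across sites, deviations of same-numbered libraries correlated at -0.12 to 0.26 and those of other pairs at -0.32 to 0.32. The deviations of the 2 brain libraries mirror each other. These values therefore cannot decide whether replicate numbers pair libraries. With the replicate number as a block, 0 genes differed between brain and subcutaneous cells by edgeR (141 unadjusted). Of the alternatives for single genes against other tumour cells in 5 libraries, 431 kept direction and call, 43 lost the call, 3 gained it and 0 reversed. Fits with thinned cells, with a stricter Tfap2a limit, without cycling cells or without 1 library were not run for 2 libraries. Between sites, the stricter limit and non-cycling cells could not be fitted.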
